A study of Mus musculus with 2 samples.

Results

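Proliferating endothelial cells of the neonatal mouse mesentery are described here from 2 single-cell RNA libraries. Each was a cell barcode with at least 2000 unique molecular identifiers (UMIs), at most 10% of them mitochondrial, at least 2 UMIs of Cdh5 (VE-cadherin, the adhesion molecule of endothelial junctions) and at least 5 UMIs of Mki67 and Top2a together. Cells with any UMI of Cd3e, Cd3g or Cd79a, chains of the T and B cell antigen receptor complexes, were left out. This gave 110 cells of 11273 barcodes, 47 of 6814 in the control library and 63 of 4459 in the Flcn iΔEC library. Of cells that met the depth, mitochondrial and Cdh5 conditions, the lymphocyte condition left out 162 of 549 (29.5%) and 235 of 874 (26.9%). Among those left out, 28 and 33 also had at least 5 UMIs of Mki67 and Top2a together. Mki67 (ENSMUSG00000031004), Top2a (ENSMUSG00000020914) and Cdh5 (ENSMUSG00000031871) were thus the genes the cells were chosen by, together with depth and the lymphocyte genes, and their levels below describe that choice.

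The study removed Flcn, which encodes the tumor suppressor folliculin, from endothelium of C57BL/6 mice. In the Flcn iΔEC mice, Cre recombinase fused to a tamoxifen-responsive receptor was driven by Cdh5 regulatory sequence (Cdh5-BAC-CreERT2) and acted on floxed Flcn alleles. The other library is labelled only as control. Both groups received 40 µg of 4-hydroxytamoxifen under the skin on postnatal days 2, 3.5, 5 and 6.5, and the mesentery was taken on postnatal day 8. Magnetic beads captured CD31+ cells, 3 mice were pooled for each library, and UMIs were counted at the 3′ ends of transcripts. Each genotype is therefore a single library with no replicate, so the values below are descriptions with 95% intervals from counting (exact Clopper-Pearson for shares, exact Poisson for levels, exact binomial for ratios of counts), which cover counting error only. Where a count is 0, the limit given with it is 3 counts of the total. The control library held 64639756 UMIs, with a median of 7283 per barcode. The Flcn iΔEC library held 60805779 UMIs, with a median of 8587 per barcode. The libraries also differed in sex-linked transcripts. Control barcodes held 9 UMIs of Xist, the RNA of the inactive X chromosome, and 15535 UMIs of 4 Y-linked genes, whereas Flcn iΔEC barcodes held 63462 Xist UMIs and 17 Y-linked UMIs. Among the proliferating endothelial cells, 44 of 47 control cells had a Y-linked UMI and 62 of 63 Flcn iΔEC cells had an Xist UMI, so genotype and sex cannot be told apart in any comparison between the libraries. The libraries shared 6 barcode sequences, none of them from a proliferating endothelial cell.

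Endothelial cells of growing vessels leave quiescence under signals such as the VEGF ligands, and cyclin D opens the way to DNA replication and then mitosis. Arterial cells mostly stop cycling as they mature, while capillary, venous and lymphatic endothelium of young animals supplies much of the new wall. Prox1 is the transcription factor that sets lymphatic identity, and Mmrn1 is a secreted protein of lymphatic endothelium. Gja5 encodes an arterial gap junction protein, Gpihbp1 the capillary protein that binds lipoprotein lipase, and Glycam1 a mucin of high endothelial venules, the vessels through which lymphocytes enter lymph nodes.

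Of the cells that met the depth, mitochondrial, Cdh5 and lymphocyte conditions, 387 in the control library and 639 in Flcn iΔEC, the proliferating cells made up 12.1% (9.06 to 15.8%) and 9.86% (7.66 to 12.4%). These intervals overlap. A further 282 and 450 cells had no UMI of Mki67 or Top2a and serve below as the Mki67/Top2a-negative endothelial cells. The remaining 58 and 126 cells had 1 to 4 such UMIs and enter neither group. Proliferating cells were the deeper ones, with a control median of 30344 UMIs (7501 to 98023) and a Flcn iΔEC median of 43891 (5260 to 116323), against 12785 and 21085 in the Mki67/Top2a-negative cells. A fixed UMI threshold finds more cells at greater depth. Thinned to 2000 UMIs, the share of endothelial cells expected to keep a UMI of Mki67 or Top2a was 11.7% in the control library and 8.76% in Flcn iΔEC. The median proliferating cell held 18 Cdh5 UMIs in each library. The threshold lay within a continuum. With 4 UMIs of Mki67 and Top2a, just outside it, 4 control and 9 Flcn iΔEC cells had a median of 23 and 20 UMIs over a list of 30 mitotic genes that excludes those 2. With 5 UMIs, just inside it, 1 control cell had 48 such UMIs and 5 Flcn iΔEC cells a median of 30.

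The vessel type of each cell was read from UMIs of Prox1, Mmrn1, Gja5, Glycam1 and Gpihbp1. At least 2 UMIs of Prox1 and Mmrn1 together, 2 of Gja5 or 10 of Glycam1 placed a cell in 1 of 3 classes, a cell meeting more than 1 of these conditions was called mixed, and a cell meeting none of them but with at least 2 Gpihbp1 UMIs was called Gpihbp1-positive. Prox1/Mmrn1-positive cells formed the largest class in both libraries, with 18 of 47 control cells (38.3%, 24.5 to 53.6%) and 36 of 63 Flcn iΔEC cells (57.1%, 44.0 to 69.5%). With the class limits doubled, it held 13 of 47 control cells and the Gpihbp1-positive class 12 of 47, so its lead in the control library narrowed. Of its 18 control cells, only 10 (21.3% of the 47) had a Mmrn1 UMI, and 12 of the 47 (25.5%) met no condition. The Mmrn1-bearing cells alone were thus not the largest control group. At the main limits, Prox1/Mmrn1-positive cells made up 30.5% (25.9 to 35.3%) of all selected endothelial cells in the control library and 54.1% (50.2 to 58.1%) in Flcn iΔEC. The intervals of proliferating and all selected cells thus overlapped. The proliferating cells are few and part of the selected cells, so overlap cannot show that the makeup was the same. Cells with Prox1 and no Mmrn1 UMI were 17.0% and 20.6% of the proliferating cells, against 7.75% and 12.05% of all selected cells. Gja5-positive cells numbered 6 of 47 and 8 of 63. Gpihbp1-positive cells numbered 9 of 47 (19.1%, 9.15 to 33.3%) in the control library and 4 of 63 (6.35%, 1.76 to 15.5%) in Flcn iΔEC. This is a residual class, since cells of the other classes can hold Gpihbp1 too. Over all classes, at least 2 Gpihbp1 UMIs were found in 18 of 47 and 28 of 63 proliferating cells, of which 7 and 20 were Prox1/Mmrn1-positive. The residual class was 29.5% (25 to 34.3%) and 9.70% (7.52 to 12.3%) of all selected cells. Glycam1 placed 1 control and 3 Flcn iΔEC cells, 1 and 3 were mixed, and 12 and 9 met no condition.

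Read the other way, the share of a class that was proliferating was 18 of 118 Prox1/Mmrn1-positive cells (15.3%, 9.30 to 23.0%) in the control library and 36 of 346 (10.4%, 7.39 to 14.1%) in Flcn iΔEC. Among Gja5-positive cells it was 6 of 50 and 8 of 105 (7.62%), so proliferating cells with this arterial gene were present in both libraries. Among Gpihbp1-positive cells it was 9 of 114 (7.89%) in the control library and 4 of 62 (6.45%) in Flcn iΔEC. The intervals of these classes overlapped within each library. Free RNA in droplets can place cells past low thresholds. Among proliferating lymphocytes (cells of the same libraries with Cd3e, Cd3g or Cd79a, no Cdh5 and at least 5 UMIs of Mki67 and Top2a), 3 of 90 control and 0 of 98 Flcn iΔEC cells had a Prox1 UMI (the 0 allows up to 3.06%), against 19 of 47 (40.4%) and 39 of 63 (61.9%) proliferating endothelial cells. A Mmrn1 UMI was in 0 of 90 and 4 of 98 lymphocytes (4.08%), a Gja5 UMI in 0 of 90 and 0 of 98, and a Gpihbp1 UMI in 1 of each. The median depth of the lymphocytes was 21628 and 19508 UMIs. Because they had to lack Cdh5, lymphocyte barcodes that carry endothelial RNA are partly left out, and these shares may lie below the background of the libraries.

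**Figure D1:**
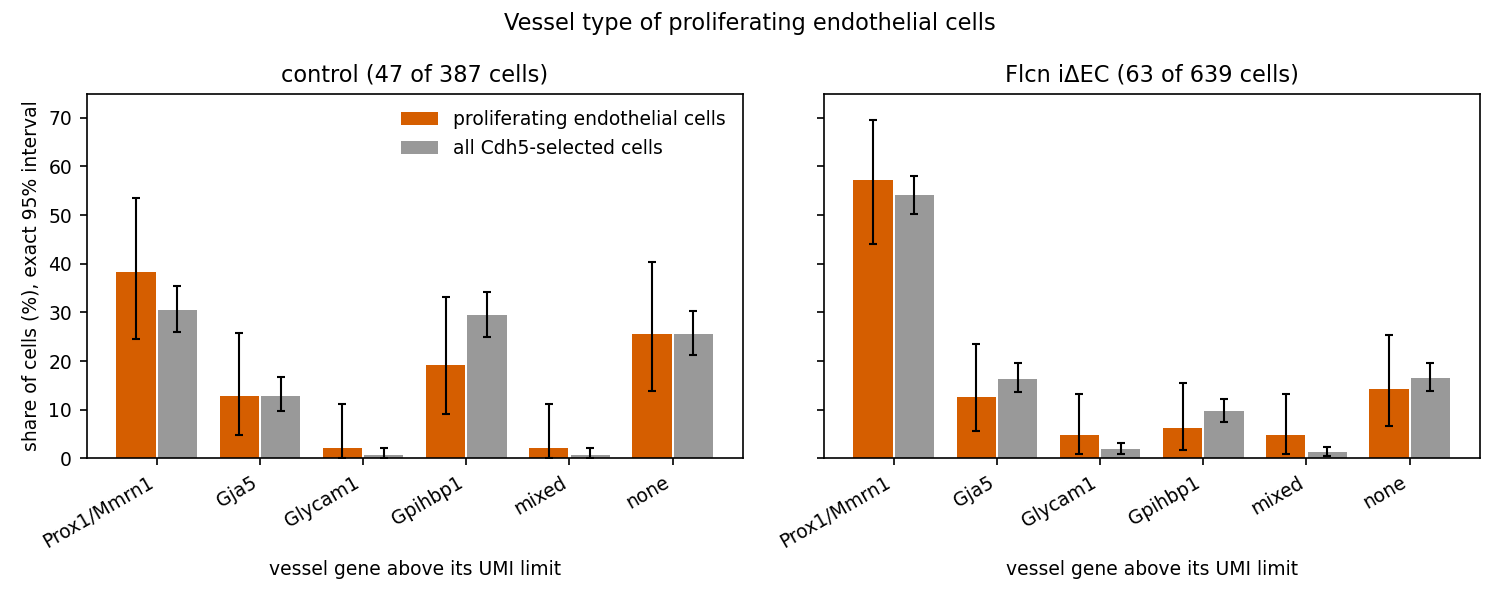
Percent of cells in each vessel class, among proliferating endothelial cells and among all selected endothelial cells of each library, with exact 95% intervals. Prox1/Mmrn1-positive cells are the largest class, at 38.3% and 57.1% of the proliferating cells, and the intervals of proliferating and all selected cells overlap in each class shown. Of the 18 control proliferating cells in that class, 10 had a Mmrn1 UMI.

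The plot of vessel classes sets these shares side by side, and the bars of proliferating cells carry the wider intervals because they rest on 47 and 63 cells. The Prox1/Mmrn1-positive class itself was of more than 1 kind. Of its proliferating cells, 10 of 18 in the control library and 23 of 36 in Flcn iΔEC had at least 1 Mmrn1 UMI, and the other 8 and 13 had Prox1 alone. Exactly 1 Mmrn1 UMI was found in 0 of the 10 and 4 of the 23 Mmrn1-bearing cells. The lymphatic list was read without Prox1 and Mmrn1, which place the cells. Past 4-fold higher in the Mmrn1-bearing than in the Prox1-alone proliferating cells were 7 of 7 tested genes in the control library. In Flcn iΔEC 7 of 9 were, and of all tested genes 72 of 2838 and 85 of 5377 were. The filter on summed UMIs favours such counts, since a gene absent from the Prox1-alone cells passes only through the Mmrn1-bearing cells. Of the listed genes with any UMI, 8 of 10 were past 4-fold higher in each library. In the Mmrn1-bearing cells Ccl21a, a chemokine that draws dendritic cells into lymphatic vessels, was at 3999.9 CPM (UMIs of the gene per 1000000 UMIs of the group) in the control library and 4044 CPM in Flcn iΔEC. Lyve1, a hyaluronan receptor of lymphatic endothelium, was at 877 and 592 CPM. Flt4, the receptor for VEGF-C, was at 388 and 286 CPM.

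In the proliferating cells with Prox1 alone, Lyve1 and Pdpn, which encodes the lymphatic surface mucin podoplanin, had no UMI in either library. Ccl21a was at 68.5 CPM in the control library and 5.62 CPM in Flcn iΔEC, and Flt4 at 5.07 and 32.3 CPM. Some genes of blood capillaries and veins were higher in them and others were lower. Past 4-fold higher were 2 of 4 tested venous genes in each library and 2 of 6 and 1 of 5 capillary genes. Of all tested genes, 76 of 2838 and 51 of 5377 were. Higher in the Mmrn1-bearing cells were 3 of 6 and 3 of 5 capillary genes and 2 of 4 and 1 of 4 venous genes. Of these, 1 capillary gene in Flcn iΔEC was past 4-fold. Over all tested genes, 1537 of 2838 and 2444 of 5377 were higher in the Mmrn1-bearing cells. In the cells with Prox1 alone, Vwf, which encodes the clotting protein von Willebrand factor, was at 1393 and 795 CPM. It was at 30.7 and 182 CPM in the Mmrn1-bearing proliferating cells. Plvap, a component of the diaphragms of fenestrated and venous endothelium, was at 1383 and 1203 CPM, against 360.3 and 252 CPM. Aplnr, the apelin receptor of veins and capillaries, was at 319.7 and 139 CPM, against 0 and 26 CPM. Nr2f2, the transcription factor of venous identity that lymphatic cells also express, was not higher in them, at 226 and 300.5 CPM against 391 and 301 CPM.

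The libraries differed in the level of Prox1 in these cells, which the class limit admits from 2 Prox1 UMIs up. In control proliferating cells with Prox1 alone, Prox1 was at 63.4 CPM (41.0 to 93.6 CPM), from 25 UMIs spread at 2 to 5 per cell. In Flcn iΔEC cells of the same kind it was at 334 CPM (293 to 379 CPM), from 238 UMIs at 2 to 59 per cell with a median of 14. Mmrn1-bearing proliferating cells were at 402 CPM (339 to 474 CPM) in the control library and 419 CPM (383 to 457 CPM) in Flcn iΔEC. Thus Prox1 in the Flcn iΔEC proliferating cells with Prox1 alone came near its level in the Mmrn1-bearing cells, and in the control cells it did not. In the control 2 of these 8 cells held at least 5 Prox1 UMIs, and in Flcn iΔEC 9 of 13 did. The Mki67/Top2a-negative cells with Prox1 alone showed the same order, at 109 CPM in the control library and 287 CPM in Flcn iΔEC. Proliferating cells made up 8 of 30 Prox1-alone cells (26.7%, 12.3 to 45.9%) in the control library and 13 of 77 (16.9%, 9.31 to 27.1%) in Flcn iΔEC, against 10 of 88 (11.4%) and 23 of 269 (8.55%) of the Mmrn1-bearing cells. The intervals of the 2 kinds overlapped in each library. Thinned to 2000 UMIs, 17.2% and 14.9% of the Prox1-alone cells were expected to keep a Mki67 or Top2a UMI. For the Mmrn1-bearing cells the expected shares were 11.2% in the control library and 8.15% in Flcn iΔEC. Lymphocyte transcripts were frequent among the control cells with Prox1 alone. Of the 8, 5 held at least 10 UMIs per 10000 from a list of 12 lymphocyte genes, against 1 of the 13 in the Flcn iΔEC library. Without the lymphocyte-rich cells, proliferating cells made up 3 of 21 (14.3%) and 12 of 69 (17.4%) Prox1-alone cells, so the order of the libraries in that share was not kept. Prox1 was at 64.5 CPM in the other 3 control cells and 337 CPM in the other 12 Flcn iΔEC cells.

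**Figure D2:**
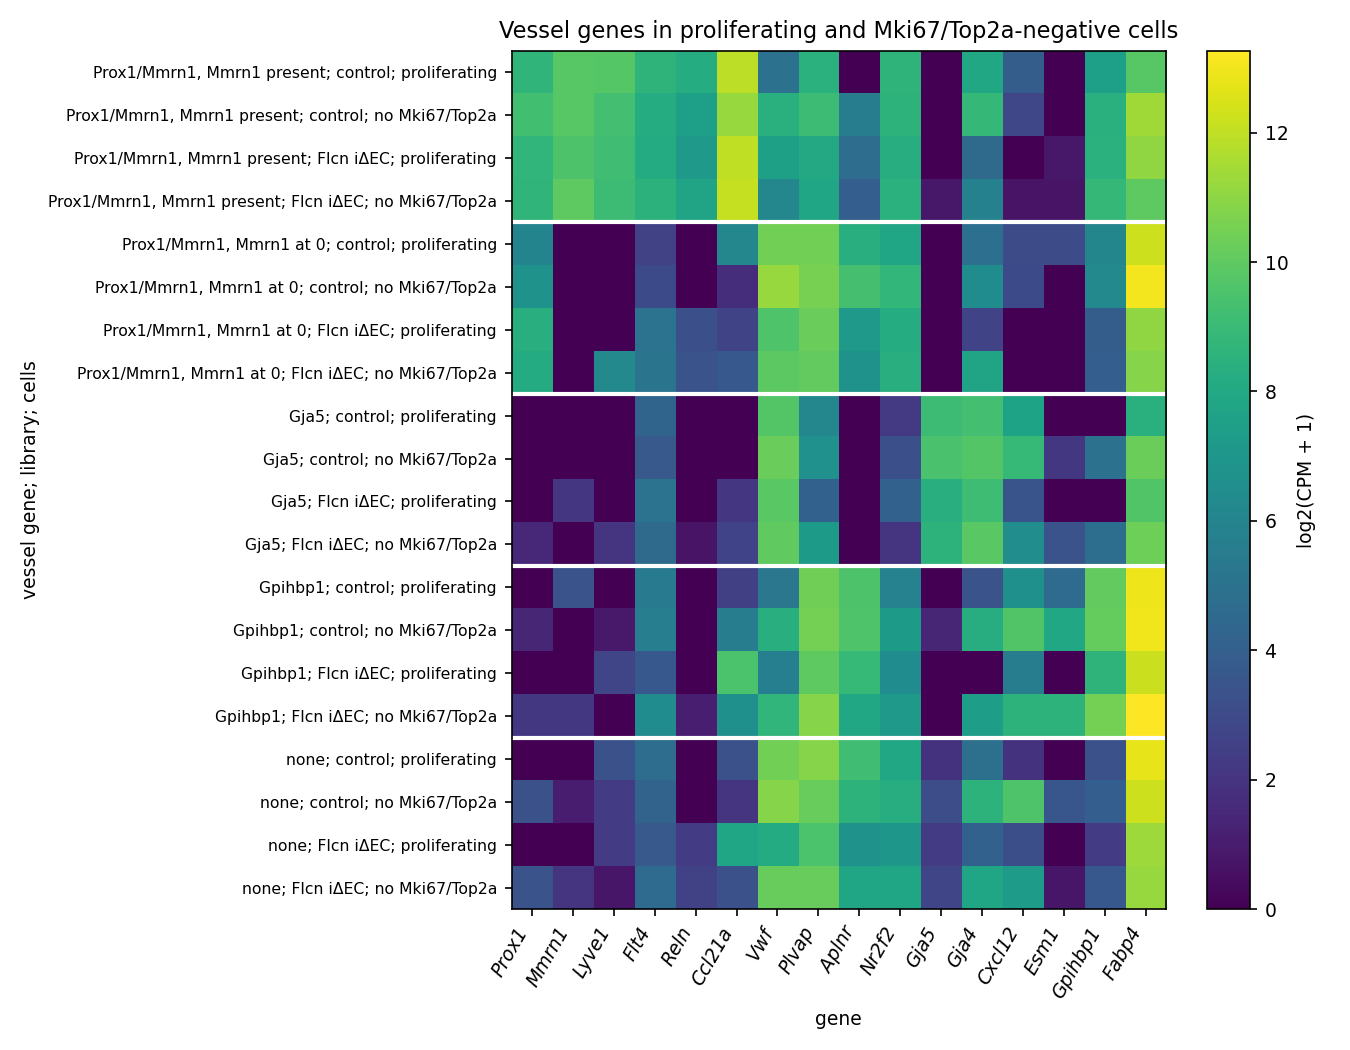
Heat map of 16 vessel genes (columns) in proliferating and Mki67/Top2a-negative endothelial cells of the larger vessel classes in each library, 20 groups in all (lines of the map), with color giving log2(CPM + 1). Prox1 in proliferating cells with Mmrn1 at 0 stands at 63.4 CPM in the control and 334 CPM in the other library, and Lyve1 has no UMI in either.

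The heat map of vessel genes shows the same contrast gene by gene, with Lyve1, Reln and Ccl21a bright in the Mmrn1-bearing cells and Vwf, Plvap and Aplnr bright in the cells with Prox1 alone. In the other classes, proliferating cells held genes of their vessel type that had not placed them there. Gja5-positive proliferating cells held Gja4, another arterial gap junction gene, at 619 CPM in the control library and 566 CPM in Flcn iΔEC. Sox17, a transcription factor of arterial endothelium, was at 329.9 CPM (265 to 406 CPM) and 293 CPM (235 to 359.5 CPM), against 599 and 309 CPM in Mki67/Top2a-negative cells of the class, and Nr2f2 was at 3.71 and 16.2 CPM. Gpihbp1-positive proliferating cells held Fabp4, a fatty acid carrier of capillaries, at 7829.6 and 4638 CPM. Cells that met no class condition held Plvap at 1853 CPM in the control library and 739 CPM in Flcn iΔEC, and Prox1 had no UMI in them. Of these, 2 of the 12 and 5 of the 9 were rich in lymphocyte transcripts (at least 10 UMIs of the list per 10000), and Plvap was at 2112 CPM in the other 10 and 853 CPM in the other 4. A single cell among those 4, with 58057 UMIs in all, held 259 UMIs of a list of mesothelial and epithelial genes and 5 of Cdh5. The 5 lymphocyte-rich Flcn iΔEC cells held 2 to 11 Cdh5 UMIs. Whether each of these cells is endothelial was not tested.

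Glycam1 RNA was also counted in lymphocytes, so its presence alone does not place a cell. A Glycam1 UMI was found in 7 of 47 control (14.9%) and 6 of 63 Flcn iΔEC (9.52%) proliferating endothelial cells, and in 21.1% and 3.06% of the proliferating lymphocytes. The control share is thus no higher than background. In the Flcn iΔEC library the summed level in proliferating cells was 585 CPM, of which 1368 of 1820 UMIs came from a single mixed cell, and without that cell it was 151 CPM. The 3 cells in the Glycam1 class of that library held 24, 69 and 268 Glycam1 UMIs. They also held Madcam1, the mucosal address molecule of high endothelial venules, at 1730.2 CPM, and Chst4, a sulfotransferase that builds their lymphocyte ligands, at 97.7 CPM. The lone control cell of the class had 11 Glycam1 UMIs and no Chst4 UMI.

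Transcripts of other cell types were present in some of the proliferating endothelial cells. Their list of 10 endothelial genes summed to 5354 CPM in the control library and 5158 CPM in Flcn iΔEC, with all 10 found in each. The list of 12 lymphocyte genes summed to 861 and 464 CPM, with all 12 found and Ltb the most abundant at 286 and 145 CPM, against 464 and 201 CPM in the Mki67/Top2a-negative cells. Ptprc (CD45, a surface phosphatase of blood cells) had a UMI in 15 of 47 (31.9%, 19.1 to 47.1%) and 20 of 63 (31.7%, 20.6 to 44.7%) proliferating cells. The share was 14.5% and 8.67% in the shallower Mki67/Top2a-negative cells, and 95.6% and 89.8% in the proliferating lymphocytes. Thinned to 2000 UMIs, the expected share was 6.39% in proliferating against 3.17% in Mki67/Top2a-negative cells of the control, and 6.55% against 1.27% in Flcn iΔEC. All 4 Gpihbp1-positive and all 3 mixed Flcn iΔEC proliferating cells had a Ptprc UMI, as did 5 of the 9 that met no class condition. The myeloid list of 10 genes summed to 173 CPM in the control, with 5 genes found, Fcer1g highest at 116 CPM and Csf1r, C1qa and S100a9 at 0. It summed to 117 CPM in the Flcn iΔEC library, where Tyrobp was highest at 63.3 CPM. Genes of fibroblasts and mural cells summed to 143 CPM with Col3a1 highest at 50.4 CPM in the control, and to 134 CPM with Acta2 highest at 54.3 CPM in Flcn iΔEC. Mesothelial and epithelial genes summed to 59.6 and 107 CPM, with Msln, Upk3b and Wt1 at 0, and a single Flcn iΔEC cell held 114 of the 117 Epcam UMIs there. Erythroid genes summed to 26.4 and 47.6 CPM and platelet genes to 43.6 and 10.3 CPM, with Hbb-bs and Pf4 highest. Scrublet, which scores barcodes against simulated doublets, called 0 of 47 and 0 of 63 proliferating cells doublets, which allows up to 6.38% and 4.76%. It called 139 of 6814 (2.04%) and 36 of 4459 (0.807%) of all barcodes. Among barcodes with at least 2 Cdh5 UMIs and a UMI of Cd3e, Cd3g or Cd79a, it called 6 of 162 (3.70%) and 3 of 235 (1.28%). Few barcodes with transcripts of both cell types were thus called, so the limits above apply to calls and not to doublets.

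Cells with at least 10 lymphocyte-list UMIs per 10000 numbered 10 of 47 and 12 of 63. Without them, a choice made after seeing the data, the Prox1/Mmrn1-positive class was 12 of 37 (32.4%, 18.0 to 49.8%) in the control library and 35 of 51 (68.6%, 54.1 to 80.9%) in Flcn iΔEC. Gpihbp1-positive cells were then 8 of 37 and 2 of 51, and mixed cells were 0 of 37 and 0 of 51, which allows up to 8.11% and 5.88%. Prox1/Mmrn1-positive cells were still the largest class, and the part of lymphocyte transcripts in the counts of the small classes was not tested. In the control library 9 of those 12 cells had a Mmrn1 UMI, and 10 of 37 met no class condition.

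Flcn (ENSMUSG00000032633) was at 9.17 CPM (5.24 to 14.9 CPM) in control proliferating cells and 7.40 CPM (4.69 to 11.1 CPM) in the Flcn iΔEC ones, from 16 and 23 UMIs. A difference was not detectable at this depth, and counts of 3′ ends can persist when an exon further upstream has been excised. Of 5 tested genes of a list of folliculin partners and targets, 1 was past 4-fold and 2 past 2-fold higher in Flcn iΔEC proliferating cells, against 56 and 234 of all 8658 tested genes. Gpnmb, a lysosomal glycoprotein and known target of the transcription factors TFE3 and TFEB that folliculin restrains, had 1 UMI (0.573 CPM) in the control and was at 39.5 CPM (32.9 to 47.2 CPM) in Flcn iΔEC proliferating cells. It was found in 20 of 36 Prox1/Mmrn1-positive Flcn iΔEC proliferating cells. The Mki67/Top2a-negative cells differed likewise, at 0.459 and 62.3 CPM. Tfe3 itself was at 32.1 CPM in the control library and 17.7 CPM in Flcn iΔEC, and Tfeb at 30.4 and 17.0 CPM. Fnip1 and Fnip2, which encode binding partners of folliculin, were at 22.9 and 12 CPM in the control against 34.4 and 27.7 CPM in Flcn iΔEC proliferating cells.

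Next, the proliferating cells were compared with the Mki67/Top2a-negative endothelial cells of the same library. Of 9350 genes with at least 50 UMIs over both groups in each library, 179 (1.91%) were past 4-fold higher in both libraries and 4 (0.0428%) past 4-fold lower, with 1 count added to each sum. All 30 genes of the mitotic list were past 4-fold higher, with a median smaller-of-both log2 ratio of 6.53, where the median over all tested genes was 0. Because Mki67 and Top2a chose the cells and move with these genes through the cell cycle, the counts describe the choice and test nothing. Ube2c, which loads ubiquitin for the anaphase-promoting complex, had the most UMIs of the list, at 596 CPM in the control library and 548 CPM in Flcn iΔEC, against 5.28 and 3.73 CPM. Cenpf, a kinetochore protein, was at 487 and 348 CPM against 4.36 and 2.29 CPM. Birc5, the survivin subunit of the chromosomal passenger complex, was at 431 and 442 CPM against 2.75 and 2.77 CPM. Ccnb1, the cyclin that drives entry into mitosis, was at 126 and 146 CPM against 0.230 and 0.669 CPM. Hmmr, a spindle and hyaluronan-binding protein, was at 147 and 102 CPM, and its counts in the Mki67/Top2a-negative cells were 0 and 2 UMIs. The whole list summed to 6046 CPM in the control library and 5082 CPM in Flcn iΔEC, against 128 and 112 CPM.

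Genes of DNA replication differed in the same direction by less. Of 22 replication genes tested, 8 were past 4-fold and 21 past 2-fold higher in both libraries, with a median log2 ratio of 1.74. Mcm5, a subunit of the replicative helicase, was at 80.8 CPM in control proliferating cells and 77.2 CPM in the Flcn iΔEC ones, against 15.8 and 9.75 CPM. Pcna, the sliding clamp of the replicative polymerases, was at 83.7 and 93.9 CPM against 32.8 and 34.7 CPM. Of 9 tested genes of nucleotide supply, 5 were past 4-fold higher. Rrm2, the regulated subunit of ribonucleotide reductase, was at 109 and 113 CPM against 1.84 and 2.48 CPM. In Prox1/Mmrn1-positive cells alone, 83 of 6461 genes (1.28%) were past 4-fold higher in proliferating than in Mki67/Top2a-negative cells of the class and 2 (0.031%) past 4-fold lower. The 83 included all 25 mitotic genes that could be tested there.

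The promoters of the listed mitotic and replication genes, whether past 4-fold or not, were read for short words. Promoters were taken from RefSeq on GRCm38.p6 as 300 bases, 250 before to 50 after the start of transcription, and both strands were read. A promoter was found for 26 of the 30 mitotic genes, 20 of the 24 replication genes and 27025 gene symbols in all. The word TTTGAA, the core of the cell cycle genes homology region that is bound by the DREAM and MuvB complexes, was in 18 of 26 mitotic promoters (69.2%), 3 of 20 replication promoters (15%) and 18.1% of all promoters. CCAAT, the word read by the factor NF-Y, was in 21 of 26 (80.8%), 13 of 20 (65%) and 37.9%. The E2F words TTCCCGC and TTGGCGC were in 2 of 26 mitotic promoters (7.69%), 11 of 20 replication promoters (55%) and 6.93% of all. The 26 and 20 genes were listed for their known roles and not by their promoters. Of the 135 promoters found for the 179 genes past 4-fold higher, 67 (49.6%) held TTTGAA and 42 (31.1%) an E2F word, against 11.5% and 13.1% of the 7229 promoters found for all tested genes. A match is a description of letters and neither a site nor a cause.

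The mitotic genes with both TTTGAA and CCAAT and the largest smaller ratio of proliferating to Mki67/Top2a-negative cells were Hmmr, Plk1 and Prc1, and their promoters are printed 5′ to 3′ to show how close the words lie to each other. Plk1 encodes a mitotic kinase, and Prc1 a protein that bundles microtubules of the central spindle. Capitals mark TTTGAA and CCAAT, or ATTGG where CCAAT is on the other strand. The Hmmr window is chr11:40733388-40733687 on the minus strand and holds 5 CCAAT matches, that of Plk1 is chr7:122159185-122159484 on the plus strand, and that of Prc1 is chr7:80294201-80294500 on the plus strand.
Hmmr: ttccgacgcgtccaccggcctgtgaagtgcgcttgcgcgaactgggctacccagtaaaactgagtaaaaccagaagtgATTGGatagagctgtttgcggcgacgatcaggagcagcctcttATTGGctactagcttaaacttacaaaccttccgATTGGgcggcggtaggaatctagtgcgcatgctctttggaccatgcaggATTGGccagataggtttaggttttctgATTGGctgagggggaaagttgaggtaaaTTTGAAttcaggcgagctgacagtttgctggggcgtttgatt
Plk1: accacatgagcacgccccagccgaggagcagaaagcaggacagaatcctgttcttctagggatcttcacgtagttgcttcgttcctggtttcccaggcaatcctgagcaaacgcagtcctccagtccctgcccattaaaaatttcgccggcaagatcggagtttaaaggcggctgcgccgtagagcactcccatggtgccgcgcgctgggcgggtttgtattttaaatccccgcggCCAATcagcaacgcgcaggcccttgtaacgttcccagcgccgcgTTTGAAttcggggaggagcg
Prc1: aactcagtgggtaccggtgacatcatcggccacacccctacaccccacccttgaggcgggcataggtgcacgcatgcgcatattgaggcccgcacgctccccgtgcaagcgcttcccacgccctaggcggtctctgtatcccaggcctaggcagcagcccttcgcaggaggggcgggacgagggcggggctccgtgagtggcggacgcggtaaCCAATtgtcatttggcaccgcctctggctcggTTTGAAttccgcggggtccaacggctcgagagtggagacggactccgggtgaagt

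The replication genes with an E2F word and the highest smaller level were Mcm3, Mcm7 and Mcm5, which encode subunits of the same helicase. Capitals here mark the E2F words on either strand, GCGGGAA and GCGCCAA being TTCCCGC and TTGGCGC read from the other strand. A GCGCCAA followed by T also holds CCAAT, and CCAAT is left in lower case. The Mcm3 window is chr1:20820263-20820562 on the minus strand, with 3 matches of which 2 overlap as TTGGCGCCAA. The Mcm7 window is chr5:138171834-138172133 on the minus strand, with 2 matches, and that of Mcm5 is chr8:75109259-75109558 on the plus strand, with 2 matches.
Mcm3: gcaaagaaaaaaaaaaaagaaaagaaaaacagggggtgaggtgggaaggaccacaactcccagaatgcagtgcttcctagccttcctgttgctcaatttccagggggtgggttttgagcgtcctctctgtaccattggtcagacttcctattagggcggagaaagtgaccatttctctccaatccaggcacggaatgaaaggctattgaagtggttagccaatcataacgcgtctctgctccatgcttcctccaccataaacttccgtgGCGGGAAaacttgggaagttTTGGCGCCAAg
Mcm7: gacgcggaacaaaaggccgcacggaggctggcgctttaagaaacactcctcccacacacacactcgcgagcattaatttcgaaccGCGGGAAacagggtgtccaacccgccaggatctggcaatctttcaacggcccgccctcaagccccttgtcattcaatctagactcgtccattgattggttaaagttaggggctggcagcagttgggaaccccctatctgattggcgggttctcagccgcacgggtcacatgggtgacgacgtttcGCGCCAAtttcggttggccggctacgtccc
Mcm5: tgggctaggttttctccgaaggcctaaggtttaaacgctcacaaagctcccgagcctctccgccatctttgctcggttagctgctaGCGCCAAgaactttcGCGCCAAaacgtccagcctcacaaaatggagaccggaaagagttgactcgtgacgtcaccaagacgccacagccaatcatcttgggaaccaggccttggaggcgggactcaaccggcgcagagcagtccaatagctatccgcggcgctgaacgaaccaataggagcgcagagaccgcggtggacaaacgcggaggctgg

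These groups gave a rough position in the cell cycle. In the proliferating endothelial cells, UMIs of the 30 mitotic genes outnumbered those of the 24 replication genes by a factor of 4.71 (4.50 to 4.93) in control cells and 3.74 (3.62 to 3.87) in Flcn iΔEC cells. The ratio was 0.350 and 0.302 in the Mki67/Top2a-negative cells. Single cells spread widely, with more mitotic than replication UMIs in 39 of 47 control and 52 of 63 Flcn iΔEC cells, and the rule itself favours cells late in the cycle, when Mki67 and Top2a are most abundant. By vessel class, the control ratio was 4.17 in Prox1/Mmrn1-positive, 4.92 in Gja5-positive and 3.84 in Gpihbp1-positive proliferating cells. In the Flcn iΔEC library it was 4.51 in Prox1/Mmrn1-positive and 3.33 in Gja5-positive cells, and 0.677 (0.569 to 0.804) in the 4 Gpihbp1-positive cells, from 224 mitotic and 331 replication UMIs. Of those 4 cells, which all had Ptprc UMIs, 2 held more mitotic and 2 more replication UMIs, so the sum does not describe each of them.

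**Figure D3:**
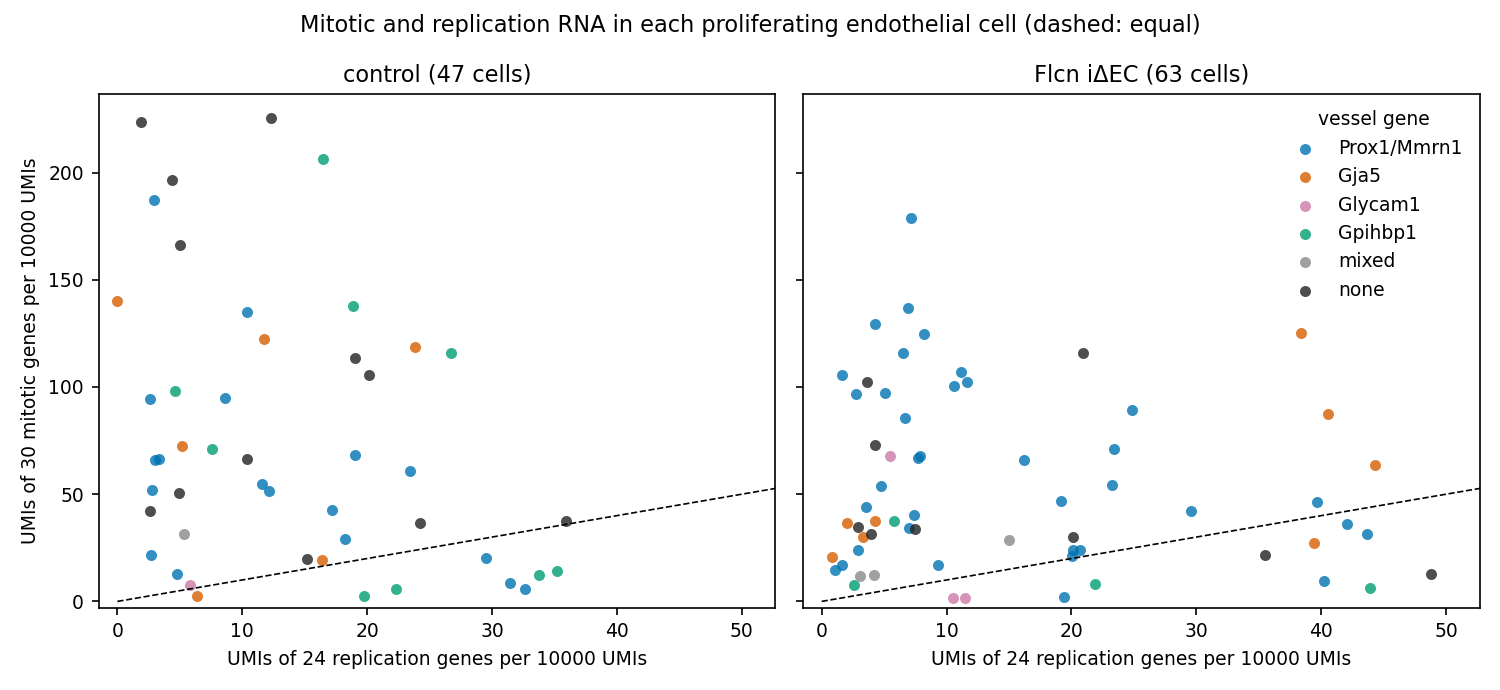
Mitotic-list and replication-list UMIs per 10000 UMIs of each proliferating endothelial cell, by library, with the vessel class of each cell. More mitotic than replication UMIs were found in 39 of 47 control and 52 of 63 Flcn iΔEC cells.

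The plot of both lists shows each cell as a point, and cells richest in mitotic transcripts mostly held few replication transcripts, with others between them and the cells rich in replication transcripts. Of 14 tested regulators of cycle entry, 3 were past 4-fold higher in proliferating cells in both libraries, against 179 of all 9350 tested genes. Foxm1, a transcription factor for mitotic genes, was at 35.5 CPM in the control library and 38.6 CPM in Flcn iΔEC, against 1.84 and 1.34 CPM in Mki67/Top2a-negative cells. E2f8, a repressor of replication genes late in S phase, was at 29.2 and 20.9 CPM against 0 and 0.765 CPM. E2f1, an activator of replication genes, was at 23.5 and 23.8 CPM against 3.21 and 4.21 CPM.

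Cyclins D and Myc, which carry growth signals to the cycle, differed less. Ccnd1 was at 306 CPM (281 to 333 CPM) in control proliferating cells and 221 CPM (204 to 238 CPM) in the Flcn iΔEC ones, against 169 and 156 CPM. Ccnd2 was on the other side, at 100.3 and 51.8 CPM against 192 and 119 CPM. Myc was at 13.2 and 12.2 CPM against 8.49 and 16.2 CPM, which gave opposite directions in the 2 libraries. Of 14 tested inhibitors, only Cdkn2c was past 4-fold higher in both libraries. It encodes an inhibitor of the cyclin D kinases and was at 128 CPM (112 to 146 CPM) and 80.7 CPM (71.0 to 91.3 CPM), against 5.28 and 8.31 CPM. Cdkn1a, the inhibitor p21 that p53 induces, was at 149 CPM against 62.4 CPM in the control, and at 182 against 173 CPM in the Flcn iΔEC library. Klf2 and Klf4, flow-induced transcription factors of resting endothelium, were abundant in dividing cells too. Klf2 was at 1243 and 992 CPM against 1588 and 1156 CPM in Mki67/Top2a-negative cells, and Klf4 at 599.6 and 547 CPM against 696 and 705 CPM.

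The 4 genes past 4-fold lower in both libraries were Cxcl12, Esm1, G0s2 and Ifitm1, of which the last pair was singled out after its values were seen. Cxcl12, a chemokine made by arterial and tip endothelium, was at 49.9 CPM (39.9 to 61.5 CPM) in control proliferating cells and 5.47 CPM (3.18 to 8.75 CPM) in the Flcn iΔEC ones, against 466 and 71.3 CPM. A single control cell held 49 of the 87 control UMIs. Esm1, which encodes a proteoglycan of endothelial tip cells, was at 4.59 CPM (1.98 to 9.04 CPM) and 2.25 CPM (0.905 to 4.64 CPM), against 65.9 and 33.1 CPM. G0s2, an inhibitor of lipolysis, was at 3.44 and 5.14 CPM against 21.8 and 25.8 CPM. Ifitm1, an interferon-induced membrane protein, was at 2.29 and 0.322 CPM against 33.5 and 9.27 CPM.

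Cxcl12 belongs to a list of 10 arterial genes, of which 0 were higher in proliferating than in Mki67/Top2a-negative cells of either library, where 4353 and 4564 of all 9350 tested genes were, with median log2 ratios of -0.71 in the control library and -1.17 in Flcn iΔEC. Gja4 was at 159 CPM in control proliferating cells and 73.6 CPM in the Flcn iΔEC ones, against 413 and 252 CPM. Sox17 was at 95.2 and 56.3 CPM against 245 and 104 CPM. The difference was not the same in each class. In Gja5-positive cells, Gja4 was at 619 and 566 CPM in proliferating against 853 and 929.7 CPM in Mki67/Top2a-negative cells. In Gpihbp1-positive cells it had 2 UMIs (9.5 CPM) in 9 control and 0 UMIs in 4 Flcn iΔEC proliferating cells, against 303 and 165 CPM. Cxcl12 in Gpihbp1-positive cells was at 99.7 and 46.1 CPM against 822 and 378 CPM. In cells that met no class condition, Cxcl12 was at 2.90 and 8.08 CPM against 782 and 154 CPM. In Gja5-positive cells it was at 204 and 9.75 CPM against 466 and 90.5 CPM, and the single control cell named above held 49 of the 55 control UMIs there. In Prox1/Mmrn1-positive cells, Gja4 was at 126 and 16.3 CPM in proliferating against 358 and 89.3 CPM in Mki67/Top2a-negative cells. Among the classes given for it, Gja4 thus differed least in Gja5-positive cells. Cxcl12 was lower in the proliferating cells of each class given for it, from few UMIs.

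Growth factor receptors differed less. Kdr, the main VEGF-A receptor, was at 342 CPM in control proliferating cells and 197 CPM in the Flcn iΔEC ones, against 447 and 275 CPM. Aplnr was at 302 and 87.8 CPM against 371 and 71.7 CPM, and Apln, its ligand, at 43.0 and 3.54 CPM against 47.3 and 9.84 CPM. Of 19 growth signal genes tested, none was past 2-fold higher in both libraries, which 349 of all 9350 tested genes were, and 15 were lower in both, which 3575 of all were. Esm1 was the 1 past 4-fold lower. Of the list of 10 endothelial genes, 9 were also lower in both libraries. Their median log2 ratios were -0.39 in the control library and -0.25 in Flcn iΔEC, against -0.41 and -0.48 for the growth signal genes.

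Proliferating lymphocytes, 90 in the control library and 98 in Flcn iΔEC, give a comparison with another dividing cell type. Of them, 4 and 8 held at least 5 UMIs of the epithelial gene Epcam. Of 7963 genes tested, 836 (10.5%) were past 4-fold higher in the proliferating endothelial cells in both libraries and 253 (3.18%) past 4-fold lower. Scaling bears on this comparison, since leaving out mitochondrial, ribosomal protein and hemoglobin genes moved the median of all genes by -0.33 log2 in the control library and -0.26 log2 in Flcn iΔEC. The ratio of mitotic to replication UMIs within a group does not depend on that scaling. It was 1.41 (1.37 to 1.46) and 2.10 (2.03 to 2.16) in the lymphocytes, below the 4.71 and 3.74 of the proliferating endothelial cells. More mitotic than replication UMIs were found in 41 of 90 and 68 of 98 lymphocytes. Replication genes were lower in the endothelial cells under either scaling, with 0 of 24 in the control library and 3 of 24 in Flcn iΔEC above the lymphocyte level, or 0 and 1 of 24 with those genes left out, where 5165 and 4881 of all 7963 tested genes were above it. Mcm7 was at 78.0 against 244 CPM in the control library and 94.9 against 196 CPM in Flcn iΔEC. Of 10 genes of nucleotide supply, 1 in the control library and 2 in Flcn iΔEC were above the lymphocyte level, and Dut, which clears dUTP, was at 174 against 513 CPM and 182 against 355 CPM. Of 30 mitotic genes, 28 were higher in the endothelial cells in the control library and 22 in Flcn iΔEC. With those genes left out the counts were 23 and 13, but this scaling moves every gene of a library by the same amount, so the difference in counts only restates it. Set against all tested genes, which does not depend on it, the median log2 ratio of the mitotic genes was 0.63 against 0.33 in the control library and 0.12 against 0.23 in Flcn iΔEC. Against only the 85 and 87 lymphocytes with a Ptprc UMI and under 5 Epcam UMIs, 0 and 3 of 24 replication genes and 25 and 16 of 30 mitotic genes were higher in the endothelial cells, and the ratio of mitotic to replication UMIs was 1.49 and 1.94 in those lymphocytes.

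**Figure D4:**
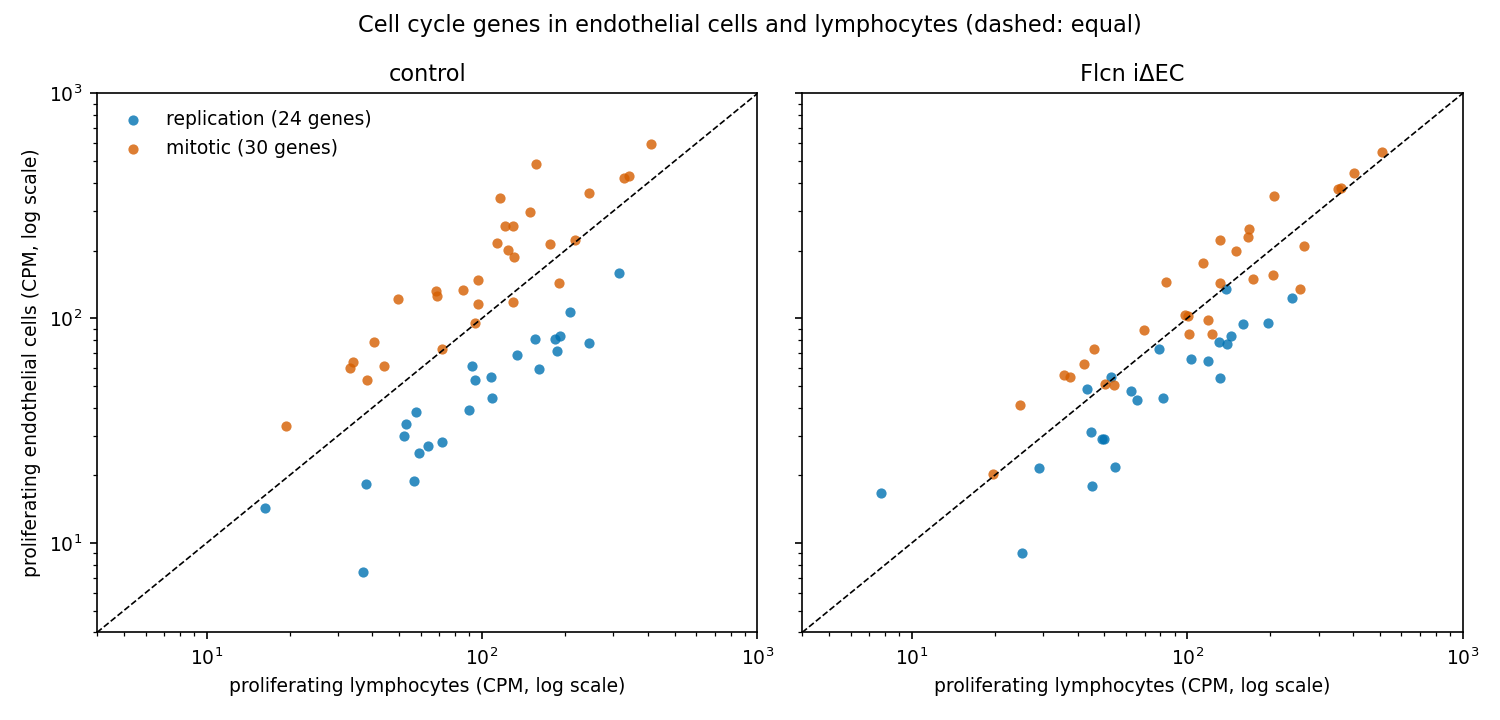
Level in CPM of each mitotic and replication gene in proliferating endothelial cells against proliferating lymphocytes of the same library, on log axes, with the line of equal levels. Replication genes lie below the line, at 0 of 24 above it in the control library and 3 of 24 in Flcn iΔEC, and 28 and 22 of 30 mitotic genes lie above it, or 23 and 13 when mitochondrial, ribosomal protein and hemoglobin genes are left out of the scaling.

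In the plot of both cell types, the distance of the replication genes from the line is larger in the control, where 13 of 24 were past 2-fold lower, than in the Flcn iΔEC library, where 5 were, against 645 and 714 of all 7963 tested genes. Against only the lymphocytes with a Ptprc UMI and under 5 Epcam UMIs the counts were 16 and 12, with median log2 ratios of -1.11 and -0.99, so most of that contrast between the libraries was not kept. Of the 3 cyclin D genes, 2 differed between the cell types. Ccnd1 was at 306 CPM in proliferating endothelial cells against 29.9 CPM in lymphocytes of the control library, and at 221 against 26.3 CPM in the Flcn iΔEC library. Ccnd2 was at 100.3 against 217 CPM and 51.8 against 259 CPM, so the pooled dividing endothelial cells carried more Ccnd1 and dividing lymphocytes more Ccnd2. In Gja5-positive proliferating cells Ccnd2 was at 215 and 179 CPM, which in the control library was close to the lymphocyte level. Ccnd3 was close, at 76.2 against 84.1 CPM and 52.7 against 54.9 CPM. Myc was at 13.2 against 78.4 CPM and 12.2 against 73.9 CPM. Of 14 tested inhibitor genes, 9 in the control library and 6 in Flcn iΔEC were above the lymphocyte level. Of all 7963 tested genes, 5165 and 4881 were. Cdkn1c and Cdkn2c were on the endothelial side in both libraries. Cdkn1c was at 78.0 against 9.69 CPM in the control library and 62.7 against 6.57 CPM in Flcn iΔEC, and Cdkn2c at 128 against 30.4 CPM and 80.7 against 31.3 CPM.

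Last, the proliferating endothelial cells of the Flcn iΔEC library were compared with those of the control. Of 8658 genes with at least 50 UMIs over both, 56 (0.647%) were past 4-fold higher and 35 (0.404%) past 4-fold lower in the Flcn iΔEC cells, around a median log2 ratio of -0.11. Gdf15, a secreted stress-response cytokine, was at 685 CPM against 22.4 CPM, a ratio of 29.9 (22.3 to 43.2), with UMIs in 53 of 63 Flcn iΔEC cells. Plat, tissue plasminogen activator, was at 462 against 23.5 CPM and was found in 51 cells. Olfm1, a secreted olfactomedin protein, was at 424 against 49.9 CPM. Hspa1a, a heat shock chaperone, was at 287 against 24.1 CPM, and in the proliferating lymphocytes at 779 against 12.8 CPM, so that difference was not limited to endothelial cells. Gdf15 was at 6.57 against 2.64 CPM in those lymphocytes. Lrrn4cl, whose product is a membrane protein, was at 129 against 2.87 CPM, a ratio of 37.7 (19.2 to 139.7), in 23 cells. Igfbp5 rested on 7 Flcn iΔEC cells, with 42.0% of its UMIs from 1 of them.

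Among the genes lower in Flcn iΔEC proliferating cells, Col15a1, a basement membrane collagen, was at 42.8 CPM against 238 CPM. Rgcc, a cell cycle regulator of capillary endothelium, was at 60.1 against 281 CPM, and Aplnr at 87.8 against 302 CPM. Ptn, the growth factor pleiotrophin, was at 52.7 against 222 CPM. Igfbp3 was at 54.0 against 255 CPM, but 333 of the 445 control UMIs came from a single cell, and without that cell the control was at 66.9 CPM. The capillary list as a whole differed less, with Rgcc alone of 6 tested genes past 2-fold lower and 1 above the control level. Of 7 tested venous genes, which include Aplnr, 4 were above the control level, 2 past 2-fold higher and 1 past 2-fold lower. Of the arterial list, 0 of 10 genes were above the control level, 6 were past 2-fold lower and Cxcl12 was past 4-fold lower. Of all 8658 tested genes, 3412 were above the control level and 388 past 2-fold lower. The makeup of the proliferating cells also differed, with 9 of 47 control and 4 of 63 Flcn iΔEC cells in the residual Gpihbp1-positive class but 18 and 28 with at least 2 Gpihbp1 UMIs over all classes, and 6 and 8 Gja5-positive. The part of this makeup in these differences was not tested. Mki67/Top2a-negative cells of the libraries differed alike, with Col15a1 at 29.4 against 185 CPM and Rgcc at 83.9 against 359 CPM.

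Within the Prox1/Mmrn1-positive proliferating cells, 36 in the Flcn iΔEC and 18 in the control library, 39 of 6706 genes (0.582%) were past 4-fold higher and 77 (1.15%) past 4-fold lower. Cd63, a tetraspanin of lysosomes and late endosomes, was at 2162 CPM against 278 CPM, a ratio of 7.75 (6.77 to 8.98), with UMIs in all 36 and all 18 cells. Gdf15 was at 913 against 42.5 CPM, Plat at 721 against 25.3 CPM and Olfm1 at 649 against 87.7 CPM. Serpinb9b, a protease inhibitor, was at 106 CPM in 16 Flcn iΔEC cells and had 2 UMIs in the control, a ratio of 26.7 (10.9 to 332). The Mki67/Top2a-negative cells of the class differed in the same direction for these genes. In those cells Cd63 was at 3763 against 518 CPM, Gdf15 at 1408 against 25.4 CPM and Olfm1 at 1571 against 174 CPM. Of the 39 genes, 35 were also higher in the Flcn iΔEC Mki67/Top2a-negative cells, 20 of them past 4-fold. Of 62 lower genes tested in both comparisons, 58 were also lower there, 16 of them past 4-fold. The share over all 6537 genes tested in both is not given, so these counts are descriptions only.

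Among the 77 lower genes were genes of blood cells. Cd7, a surface protein of T and natural killer cells, was at 4.73 CPM against 145 CPM, Fcer1g, a signaling chain of Fc receptors, at 5.78 against 161 CPM, and Il7r, the interleukin-7 receptor, at 13.7 against 230 CPM. Spp1, made by macrophages among other cells, had 166 of its 167 control UMIs in a single cell. Of the 12 listed lymphocyte genes, 6 had enough summed UMIs to be tested. All 6 were past 4-fold lower in the Flcn iΔEC cells, against 77 of all 6706 tested genes. At least 10 lymphocyte-list UMIs per 10000 were held by 6 of the 18 control and 1 of the 36 Flcn iΔEC cells. Without those cells, 27 of 6222 genes were past 4-fold lower and 41 past 4-fold higher. Only 1 lymphocyte gene was then tested, and it was higher in the Flcn iΔEC cells, with a log2 ratio of 1.52. The other lymphocyte genes had thus passed the filter through the cells left out, so their shared direction tests nothing. Cd7, Fcer1g and Il7r then had no UMI in the control. Cd63 was then at 2175 against 388 CPM, Gdf15 at 919 against 62.9 CPM, Plat at 725 against 32.5 CPM and Olfm1 at 654 against 137 CPM, so these 4 genes kept their direction.

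**Figure D5:**
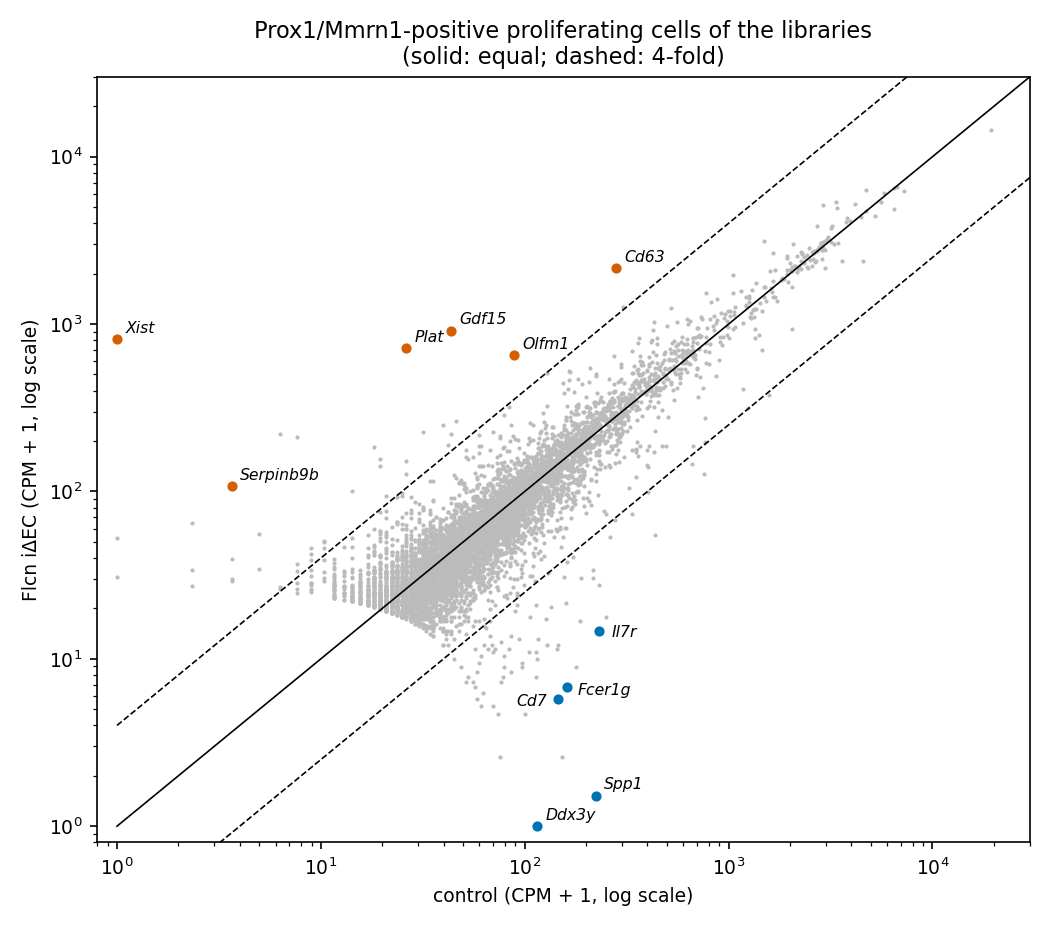
Level (CPM + 1) of each tested gene in Prox1/Mmrn1-positive proliferating endothelial cells, Flcn iΔEC library against control, on log axes, with lines at equal levels and at 4-fold. Cd63 stands at 2162 against 278 CPM and Gdf15 at 913 against 42.5 CPM, while most genes lie between the 4-fold lines.

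The plot of both libraries shows how few genes lay outside 4-fold in this class. Mitotic genes were close to the line. Of the 30, 25 were above the control level in Prox1/Mmrn1-positive proliferating cells, with a median log2 ratio of 0.22, where the median of all tested genes was -0.06. Over all proliferating endothelial cells, 4 of 30 were above the control level, with a median of -0.30 against -0.11 for all genes. Replication genes were above it in 17 of 21 tested in the class (median 0.29) and in 13 of 23 tested over all proliferating cells (median 0.05). These counts in the class were not kept without the cells rich in lymphocyte transcripts. Then, 15 of 30 mitotic genes (median 0.02) and 3 of 21 replication genes (median -0.25) were above the control level in the class, where the median of all tested genes was -0.10, and over all proliferating cells 3 of 30 (median -0.30) and 11 of 23 (median -0.05) were. The directions thus depended on which proliferating cells were compared.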

How the data were processed

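The authors aligned 10x Chromium 3′ v3 reads to mm10 with Cell Ranger 3.0 and deposited raw UMI counts for 28692 genes in each library. Counts were used as deposited. Members and gene lists were chosen with earlier results of these data known. Levels are UMIs summed over a group of cells and scaled to 1000000 (CPM). Ratios add 1 count to each sum and were taken for genes with at least 50 summed UMIs, and called means past 4-fold. With 1 library per condition no test was made. Named genes are those of the lists, plus genes at 100 CPM or more with the 10 largest ratios each way between libraries, in all and in Prox1/Mmrn1-positive members, and the 15 largest each way over Mki67/Top2a-negative cells. Doublets were scored with Scrublet in scanpy 1.11.5 at an expected rate of 0.05. Alternatives changed the cell rule, depth, class limits, filters, scaling and added counts. Calculations, tested on simulated data, used Python 3.11.15, numpy 2.4.6, scipy 1.17.1, pandas 2.3.3 and matplotlib 3.10.9.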

Additional observations from a re-analysis of the deposited data

How the results depend on the processing

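No paired analysis was possible because the results come from no test, with 1 library per condition. Of 218 alternative values, 194 stayed within the counting interval of a share or ratio or within 1.5 times a gene count, and 24 moved. None moved with Cdh5 at 5 or more, cells thinned to 2000 UMIs, class limits halved or doubled, or CPM scaled with mitochondrial, hemoglobin and ribosomal protein genes omitted. Leaving out called doublets, shared barcodes or cells under 5000 UMIs removed no proliferating cell, so those 58 values could hardly move and test little. With Mki67 and Top2a at 3 or more, the Flcn iΔEC share was 12.8% (82 of 639). With 10 or more, 7 genes were past 4-fold lower than in Mki67/Top2a-negative cells, and the mitotic to replication ratio was 5.18 in control and 4.14 in Flcn iΔEC cells. Without cells with a Ptprc UMI, Flcn iΔEC Gpihbp1-positive proliferating cells were 0 of 43 members (0%, which allows up to 6.98%) and 0 of 50 cells of the class (0%, up to 6%). With at least 20 summed UMIs, 98 genes were higher and 77 lower between libraries, 62 and 184 in Prox1/Mmrn1-positive cells, and 8 were lower than in Mki67/Top2a-negative cells. With at least 100 these counts were 36, 18, 25 and 37, and 111 were higher than in Mki67/Top2a-negative cells; the filter itself sets how many genes can pass. With 5 counts added, 25 genes were higher in Prox1/Mmrn1-positive cells. With each cell weighted equally, 8 genes were lower than in Mki67/Top2a-negative cells, and the phase ratio was 5.42 and 3.52. In alternatives chosen after seeing the data, leaving out cells rich in lymphocyte transcripts gave 27 lower genes in Prox1/Mmrn1-positive cells and a control phase ratio of 4.44, and lymphocytes with a Ptprc UMI and under 5 Epcam UMIs had phase ratios of 1.49 and 1.94. The cause of the moves in shares and ratios was not tested. Classes of 1 to 9 proliferating cells limit what depth can show for Gja5-, Glycam1- and Gpihbp1-positive cells.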
